A study of Arabidopsis thaliana with 6 samples.

Results

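The genes described here are 10 NLR immune receptor genes of Arabidopsis thaliana, taken by gene identifier from the 33602 genes of the deposited gene tables. They are RPP7, RPP4, SNC1, RPP5, RPS4, RRS1, RPS6, RPS2, RPM1 and ADR1. They were chosen by name and with no threshold, but with the measured WT to mutant differences in their RNA level and splicing known, so every difference below describes the members and none is independent support. RNA-seq was done on 3 WT libraries (replicates 2, 4 and 5) and 3 acinus-2 pnn libraries (replicates 6, 7 and 12). Both genotypes are Col-0, whole seedlings grown in continuous light and aged 12 days by the labels (the study's methods give a slightly higher age), with no further treatment. The acinus-2 pnn plants carry a T-DNA insertion in AtACINUS (AT4G39680) and one in AtPININ (AT1G15200), 2 genes for splicing-related nuclear proteins. They are 1 double mutant line with 1 allele of each gene, so an effect of either insertion alone cannot be told apart from the effect of both. The libraries are described as biological replicates, but the plants pooled in each are not given in the sources used here, so the p-values measure the spread between these libraries.

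Each library held 23104163 to 33595940 mapped reads. In AtACINUS, the last exon had 482, 746 and 700 reads in WT and 0, 0 and 1 in the mutant, and the level of the gene was 32.9 ± 1.60 RPKM in WT and 11.4 ± 0.12 RPKM in the mutant (SD, n = 3 each). In AtPININ, exons 1 to 8 had fewer reads in the mutant at equal depth and exons 9 to 11 had more, with 41.5 ± 4.74 RPKM over the gene against 23.2 ± 1.65 RPKM in WT. The 3 leaf markers summed to between 8592 and 9385 RPKM in WT and between 7647 and 7963 RPKM in the mutant, with RBCS1A and RCA lower there (log2 -0.25 and -0.32) and CAB3 at a log2 change of 0.17. The 3 root markers summed to between 756 and 911 RPKM in WT and between 563 and 630 RPKM in the mutant, and all 3 were lower there, EXPA7 by a log2 change of -1.0, COBL9 of -1.14 and PYK10 of -0.49. The flower markers AP3 and AG summed to 0.208 RPKM or less in every library. The seed storage genes CRA1 and CRC summed to 9.64 RPKM in mutant replicate 12 and to 0.11 RPKM or less in the other 5 libraries. The part of these shifts in the values below was not tested, and in such bulk samples fewer cells of a type and less RNA per cell cannot be told apart.

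NLR proteins are intracellular receptors with a nucleotide-binding domain and leucine-rich repeats, which detect pathogen effectors or the traces of their action and then trigger a local immune response. Those with a TIR domain at the amino end (RPP4, SNC1, RPP5, RPS4, RRS1 and RPS6) signal through EDS1 and its partners. Those with a coiled coil there (RPP7, RPS2 and RPM1) recognise other effectors, and ADR1 belongs to the helper class that acts downstream of both. Too much NLR protein causes autoimmunity in the absence of a pathogen, and NLR RNA is held in check at several steps, alternative splicing and early polyadenylation among them. In Col-0 the long first intron of RPP7 holds a retrotransposon, and the chromatin protein EDM2 promotes the full-length transcript over shorter transcripts that end in that intron.

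RPP7 (AT1G58602) lies on the plus strand at chr1:21746354-21766048 of TAIR10. Its coding part runs from 21760167 to 21763765, so introns 1 to 3 lie before the start codon and introns 6 to 9 after the stop codon. Exons and introns are numbered here in the order of transcription. Intron 1 (chr1:21746500-21753883) is 7384 bases long and contains AT1G58561, a gene annotated as a pseudogene on the same strand, at chr1:21748675-21753246. Spliced reads, few of them in WT, also bounded a piece of 564 bases inside intron 1, at chr1:21747401-21747964, called the inner exon here. In the mutant fewer spliced reads entered this piece than left it. Whether both of its ends are used in the same RNA was not tested. The sequences below are the splice sites that the RPP7 results turn on, each as 30 bases of the TAIR10.1 reference with the first 2 or last 2 bases of the intron in capitals. They show that the annotated and the inner junctions all join a GT to an AG, and that the inner donor can reach acceptors 3 bases apart.
RPP7 intron 1 donor, chr1:21746490-21746519: gattcaaaagGTtagtcatttttattattt
RPP7 intron 1 acceptor, chr1:21753864-21753893: gtatattttgttgtccacAGaaattcgggg
RPP7 inner exon acceptor, chr1:21747381-21747410: actaagatctgcctctccAGttcacgaccc
RPP7 inner exon donor, chr1:21747955-21747984: gcgtgggaagGTtggagtctaatagtgtga
RPP7 inner acceptor 1, chr1:21748028-21748057: gtgtgtttctacgttttcAGcagtcactcg
RPP7 inner acceptor 2, chr1:21748031-21748060: tgtttctacgttttcagcAGtcactcggtt

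Compared to WT, the acinus-2 pnn mutant held more reads in intron 1 of RPP7, while the reads that splice exon 1 to exon 2 did not differ beyond their spread. Intron 1 had 894, 1380 and 1505 reads in WT replicates 2, 4 and 5, and 2743, 2557 and 3218 reads in mutant replicates 6, 7 and 12. All 3 mutant libraries lay above all 3 WT libraries. In reads per 1000000 mapped reads (RPM) this was 43.0 ± 3.73 in WT and 102 ± 2.47 in the mutant (SD, n = 3), a ratio of 2.38. As a ratio to the reads of exons 1 and 2, intron reads were 2.99 ± 0.295 in WT and 6.44 ± 0.367 in the mutant. Per base, the intron was at 14.2% of its neighbouring exons in WT and 30.6% in the mutant. In the edgeR quasi-likelihood fit over 25523 introns the log2 change was 1.11 with a standard error of 0.18 and a Benjamini-Hochberg adjusted p of 1.1e-04. It passed all thresholds (adjusted p under 0.05, fold change above 2, intron RPKM above 1 and intron percentage above 5). Leaving out each library in turn gave 1.03 to 1.16 with adjusted p from 4.9e-04 to 0.0056, and DESeq2 gave 1.11 with an adjusted p of 0.9996. Of all 25523 introns, DESeq2 gave 13 an adjusted p under 0.05. In simulated intron counts of these libraries, edgeR found 28 of 100 introns changed 2-fold and DESeq2 found 0 of 100. Those introns were of many read numbers and had a fixed spread. Their recovery therefore does not say what either test could find at RPP7 intron 1.

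The reads of intron 1 were not spread evenly. The part shared with AT1G58561, 4572 bases, had 19.4, 22.9 and 23.4 RPM in WT and 34.6, 32.9 and 40.7 in the mutant. The other 2812 bases had 19.3, 22.6 and 21.4 RPM in WT and 67.0, 67.6 and 64.5 in the mutant. Both parts were higher in every mutant library, with a ratio of 1.65 for the shared part and 3.15 for the rest. AT1G58561 itself, named here after its values were seen, had a log2 change of 0.71 ± 0.082 (SE) in the gene fit. With only the intron reads not shared with another gene, the log2 change of intron 1 was 1.51 with an edgeR adjusted p of 5.8e-08.

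Exons on either side of intron 1 did not move alike. Exon 1 had 5.67, 5.99 and 5.60 RPM in WT and 7.52, 8.57 and 7.16 in the mutant, a ratio of 1.35 with no overlap. Exon 2 had 11.9, 11.6 and 10.9 RPM in WT and 10.8, 10.8 and 11.2 in the mutant, a ratio of 0.954 with overlap. Exons 3 and 5 had ratios of 1.07 and 1.11 with overlap, and exon 6, the longest coding exon, had 1.34 without. Relative to the whole gene, exon 2 was lower in the mutant by a log2 change of -0.36, with an unadjusted p of 0.00028 and an adjusted p of 0.417 in the edgeR exon usage fit. None of the 58 member exons tested was called by edgeR (4 had an unadjusted p under 0.05), where 0.0365% of all exons tested were. Over the gene, RPP7 was at 29.2, 30.1 and 29.7 RPKM in WT and 36.3, 36.1 and 37.9 RPKM in the mutant, a log2 change of 0.30 ± 0.044 (SE).

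**Figure D1:**
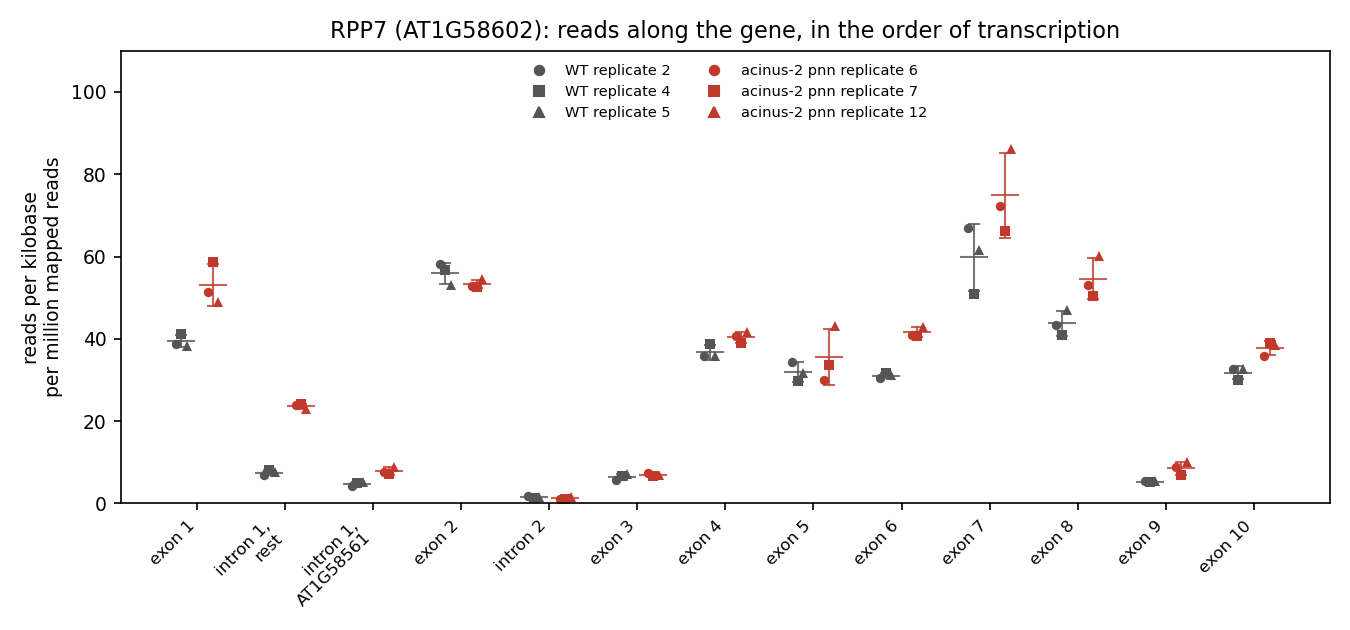
Reads per kilobase and 1000000 mapped reads (linear axis) in the exons and the first introns of RPP7, one point per library, with the mean and SD of 3 libraries per genotype. Intron 1 outside AT1G58561 stood at 7.50 in WT and 23.6 in the mutant, while exon 2 was at 56.0 and 53.4.

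Spliced reads placed part of this signal at the inner exon. The junction from exon 1 to the inner exon had 2, 2 and 1 reads in WT and 10, 6 and 12 reads in the mutant, 0.0607 and 0.333 RPM. The junction from the inner donor to its first acceptor, an intron of 83 bases, had 0 reads in each WT library and 29, 16 and 24 reads in the mutant. Every mutant library therefore held a junction that no WT library showed. Against a floor of 3 reads over the WT group it was at least 24.1-fold higher. It made up 17.5% of the spliced reads listed for the pair of exons 1 and 2 in the mutant. It was the only one of 6 alternative donor or acceptor events of the members called by Fisher's exact test (p under 0.05 in all 9 pairs of 1 WT and 1 mutant library, largest p = 7.6e-05), where 0.242% of 3726 events were called over all genes. Without WT replicate 2 a second event of the members passed as well. edgeR on the same junctions called 0 of the 6 (3 had an unadjusted p under 0.05), and gave this one an unadjusted p of 2.2e-04 and an adjusted p of 0.40. The second acceptor had 2, 0 and 0 reads in WT and 10, 13 and 7 reads in the mutant. Its share of the spliced reads of this exon pair was 0.664% in WT and 7.59% in the mutant.

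Reads that splice exon 1 directly to exon 2 did not follow the inner junctions. The exon 1 to exon 2 junction had 87, 100 and 101 reads in WT and 87, 78 and 96 reads in the mutant, or 3.36 ± 0.383 and 3.14 ± 0.078 RPM. The 2 genotypes overlapped.

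**Figure D2:**
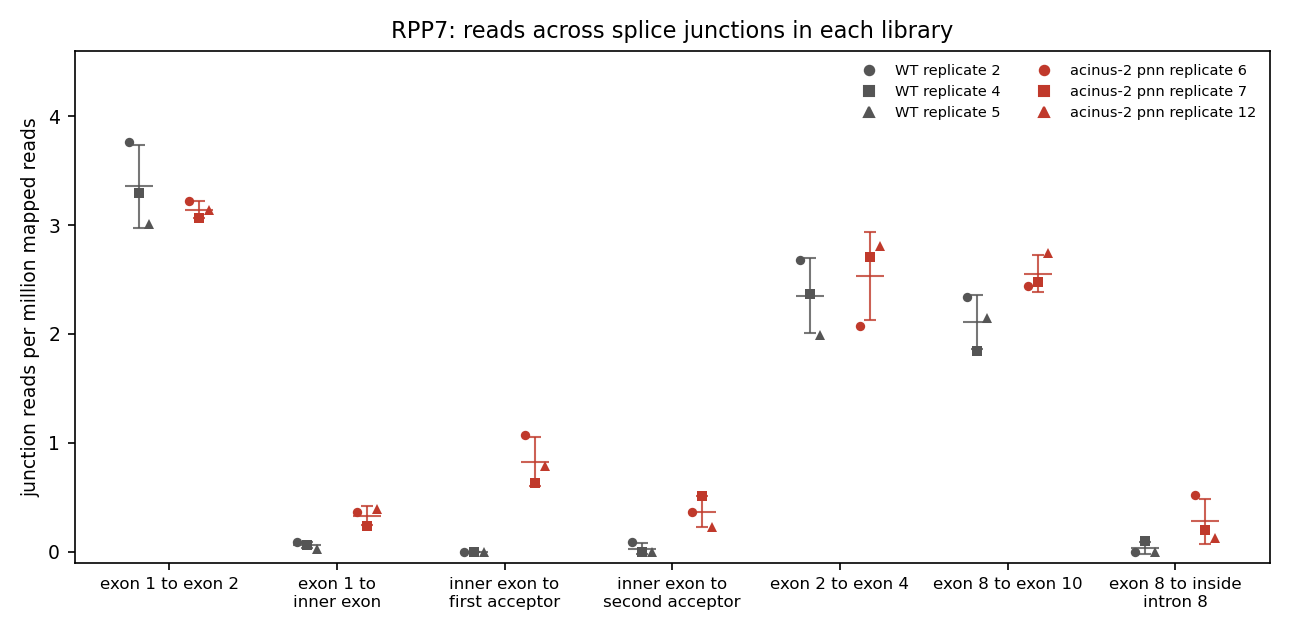
RPM (linear axis) across 7 splice junctions of RPP7, one point per library, with the mean and SD of 3 libraries per genotype. The 3 junctions that use the inner exon lie at or near 0 in WT and between 0.229 and 1.07 in the mutant, while the exon 1 to exon 2 junction overlaps between genotypes.

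Introns after the stop codon of RPP7 were also read, in both genotypes. Intron 6 had 73, 101 and 128 reads in WT and 100, 93 and 130 in the mutant, at 121% and 103% of its exons per base, while only 18, 16 and 17 reads in WT and 19, 32 and 34 in the mutant were spliced from exon 6 to exon 7. It was thus read as often per base as its exons in both genotypes, and its log2 change was -0.24 with an edgeR adjusted p of 0.73. Intron 9, absent from both transcripts of the reference annotation, had 9, 10 and 15 reads in WT and 25, 25 and 28 in the mutant, a log2 change of 0.99 that did not pass (adjusted p = 0.198). Exon 3 was skipped in 91.1% of spliced reads in WT and 86.8% in the mutant, and exon 9 in 97.3% and 98.2%. Neither of these 2 skipping events was called by edgeR (0 had an unadjusted p under 0.05), where 0.121% of 828 events were called over all genes.

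EDM2, the regulator of RPP7 transcript length, was at 8.22, 7.85 and 7.28 RPKM in WT and 4.89, 4.80 and 5.21 RPKM in the mutant. Its log2 change was -0.65 ± 0.063 (SE) with an edgeR adjusted p of 5.3e-06, below the fold of 2 that a call needed. Its part in the RPP7 values was not tested. Of the neighbours of RPP7 in its gene cluster, 8 of 9 were higher in the mutant with a median log2 change of 0.29. Of all 20962 genes tested, 10522 were higher, with a median of 0.0015. The levels of AT1G58807 and AT1G59124, at 16.1 and 16.5 RPKM in WT, and those of AT1G58848 and AT1G59218, at 11.4 and 11.9 RPKM, are uncertain, since the reads of closely related copies may have been split between them.

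RPP4 (AT4G16860, chr4:9488466-9495837), SNC1 (AT4G16890, chr4:9500271-9505972) and RPP5 (AT4G16950, chr4:9538233-9544755) lie on the minus strand in a single cluster of related genes. RPP4, and RPP5 in another accession, give resistance to downy mildew, and SNC1 is known for a gain-of-function allele that causes constant defence. Of windows of 100 bases, 39.4% in RPP4 exons, 24.2% in SNC1 exons and 43.8% in RPP5 exons had a copy elsewhere in the genome with at most 2 mismatches, against 12.0% in RPP7 and 0% in the other 6 members. The deposited share of multiple reads was 0 or near 0 for these genes (at most 0.146%), so it does not mark reads that fit several copies. Values of the 3 genes, and in part those of RPP7, are therefore uncertain as to which copy a read came from.

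SNC1 and RPP5 were higher in the mutant and RPP4 differed least. SNC1 was at 22.7, 25.1 and 23.8 RPKM in WT and 31.8, 32.4 and 36.2 in the mutant, a log2 change of 0.48 ± 0.048 (SE). RPP5 was at 13.3, 14.96 and 13.7 RPKM in WT and 19.8, 20.7 and 23.0 in the mutant, a log2 change of 0.59 ± 0.051. In both genes the genotypes did not overlap, and neither reached a fold of 2. RPP4 was at 11.1, 12.8 and 11.9 RPKM in WT and 12.7, 13.8 and 15.2 in the mutant, with overlap, a log2 change of 0.21 ± 0.060.

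In RPP4, all 5 introns had fewer reads relative to their exons in the mutant, and intron 4 was called. Intron 4 (chr4:9489852-9489967, 116 bases, between coding exons) had 10, 17 and 37 reads in WT and 7, 4 and 7 reads in the mutant. The lowest WT library was above the highest mutant library, but WT replicate 5 held most of the WT reads. The ratio to exon reads was 0.0629 ± 0.0331 in WT and 0.0163 ± 0.0047 in the mutant, or 48.3% and 12.5% of the exons per base. The log2 change was -1.96 ± 0.44 (SE) with an edgeR adjusted p of 0.0085. The call was lost without WT replicate 5 (-1.41, adjusted p = 0.218), without mutant replicate 7 (-1.82, 0.0968), without mutant replicate 12 (-1.92, 0.0980) and with DESeq2 (-1.88, 0.851). Intron 3 had 12, 24 and 33 reads in WT and 8, 12 and 9 in the mutant, a log2 change of -1.39 with an adjusted p of 0.0513. Introns 1, 2 and 5 had log2 changes of -0.58, -0.45 and -0.91 and did not pass.

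Few spliced reads were listed for the RPP4 introns, from 1 to 25 per intron over all 6 libraries, with a median of 0.0598 per 100 exon reads against 2.27 in RPP7 and 9.62 in ADR1. Introns 2 to 5 of RPP4 together had 60, 104 and 142 reads in WT and 46, 58 and 65 in the mutant, 3.42 ± 0.815 and 2.04 ± 0.298 RPM. Intron 3 of RPP4 is identical to intron 3 of RPP5 over 100 bases, and intron 4 is 94.8% identical to intron 4 of RPP5. The donor and acceptor of intron 4 are printed for both genes, on the minus strand and with the intron's ends in capitals, because they are so alike. The 1 window of 100 bases in RPP4 intron 4 had 0 copies elsewhere with at most 2 mismatches. Since the read length is not given, how well a read there can be assigned to 1 copy is not known. The donors are the same 30 bases in both genes.
RPP4 intron 4 donor, chr4:9489948-9489977: tggaactcagGTactaattctattagtgat
RPP5 intron 4 donor, chr4:9541651-9541680: tggaactcagGTactaattctattagtgat
RPP4 intron 4 acceptor, chr4:9489842-9489871: ttcccctattttgttatcAGccacttggaa
RPP5 intron 4 acceptor, chr4:9541545-9541574: ttcccctattttgttattAGccacttggaa

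Reads that join a member to a distant place also marked this cluster. They made up 15.7% of the junction reads of RPP4, 6.70% of those of SNC1 and of RPP5, 2.41% of those of RPP7 and 1.13% of those of RPS6, and 0 reads in ADR1, RPS4, RRS1 and RPM1. One such junction ran from exon 2 of SNC1 to the place of RPP4, with 0, 5 and 2 reads in WT and 4, 4 and 9 reads in the mutant, and the genotypes overlapped. Such joins were found in both genotypes.

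No intron of SNC1 or RPP5 was called. Intron 3 of RPP5, the copy of RPP4 intron 3, had a ratio to exon reads of 0.0363 ± 0.0097 in WT and 0.0140 ± 0.0047 in the mutant without overlap, a log2 change of -1.43 with an edgeR adjusted p of 0.199. Intron 5 of SNC1, which the reference annotation counts as exon in all 5 of its SNC1 transcripts, had 273, 360 and 397 reads in WT and 440, 427 and 550 in the mutant, at 123% and 129% of its exons per base. The exon 1 to exon 2 junction of SNC1 had 56, 75 and 92 reads in WT and 93, 90 and 136 in the mutant, 2.54 ± 0.17 and 3.81 ± 0.55 RPM. That of RPP5 had 31, 44 and 52 reads in WT and 75, 51 and 84 in the mutant, 1.45 ± 0.10 and 2.51 ± 0.44 RPM. Both junctions thus stood higher in the mutant beside the higher level of their gene. An intron of 129 bases inside the last exon of RPP5 was spliced out in 65, 70 and 78 reads in WT and 70, 88 and 103 in the mutant, with overlap in RPM.

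RPS4 (AT5G45250, chr5:18321764-18326175, minus strand) and RRS1 (AT5G45260, chr5:18326203-18332920, plus strand) are neighbours in opposite orientation whose proteins work as a pair against bacterial effectors. RPS4 was at 4.31, 4.95 and 4.81 RPKM in WT and 4.57, 4.57 and 5.41 in the mutant, with overlap and a log2 change of 0.04 ± 0.074 (SE). RRS1 was at 3.22, 3.76 and 3.29 RPKM in WT and 3.89, 3.95 and 4.29 in the mutant, without overlap and with a log2 change of 0.23 ± 0.065. The 2 partners thus stood at similar levels, and only RRS1 had non-overlapping genotypes. Whether their changes differ from each other was not tested. RPS4 is known for alternative transcripts that keep introns, but at this depth introns 3 and 4 alone of RPS4 could be tested, with log2 changes of -1.48 ± 0.94 and 1.1 ± 0.99. In RRS1, a junction of 1088 bases with a donor inside exon 5 had 6, 14 and 16 reads in WT and 8, 9 and 10 in the mutant, with overlap.

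RPS6 (AT5G46470, chr5:18842553-18849741, plus strand), which recognises the bacterial effector HopA, was at 7.70, 8.16 and 7.35 RPKM in WT and 7.51, 6.90 and 8.37 in the mutant, a log2 change of -0.03 ± 0.061 (SE). Its genotypes overlapped. Intron 2 of RPS6 had 2, 8 and 8 reads in WT and 12, 10 and 11 in the mutant, a log2 change of 0.88 that did not pass (edgeR adjusted p = 0.50). Intron 10, after 33.1% in WT, was at 44.1% of its exons per base in the mutant, with overlap. A junction of 68 bases inside exon 9 had 6, 5 and 10 reads in WT and 3, 0 and 0 in the mutant, 0.241 ± 0.068 and 0.0370 ± 0.064 RPM.

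RPS2 (AT4G26090, chr4:13224338-13227872, plus strand) and RPM1 (AT3G07040, chr3:2225855-2229555, minus strand) encode plasma membrane receptors that both guard the protein RIN4, and each has a single exon, so no intron could be measured. RPM1 was at 2.24, 2.36 and 2.53 RPKM in WT and 3.11, 3.40 and 3.80 in the mutant, a log2 change of 0.52 ± 0.093 (SE) without overlap. RPS2 was at 3.21, 3.59 and 3.30 RPKM in WT and 3.64, 3.89 and 4.27 in the mutant, a log2 change of 0.22 ± 0.071 without overlap. From 96.4% to 99.0% of the RPS2 reads were marked as shared with another annotated gene, an antisense gene at the same place, and without strand, which is not given in the sources used here, the 2 cannot be told apart. With the unmarked reads alone the log2 change was -0.11 with an edgeR adjusted p of 0.87. These reads are too few to give a direction, so the change of 0.22 rests on the shared reads.

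ADR1 (AT1G33560, chr1:12168768-12172119, plus strand) had the largest difference of the 10 genes. It was at 3.61, 5.08 and 4.06 RPKM in WT and 7.38, 8.08 and 8.09 in the mutant, all mutant libraries above all WT libraries. The log2 change was 0.87 ± 0.091 (SE), a fold of 1.83. Its 4 introns were nearly free of reads in both genotypes, and intron 4, the only one tested, had 0, 2 and 2 reads in WT and 6, 4 and 4 in the mutant (log2 1.0, edgeR adjusted p = 0.70). Spliced reads over 3 of its 4 introns were higher in every mutant library, for example 15, 21 and 9 against 23, 34 and 44 over intron 4, while those of intron 1 overlapped.

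**Figure D3:**
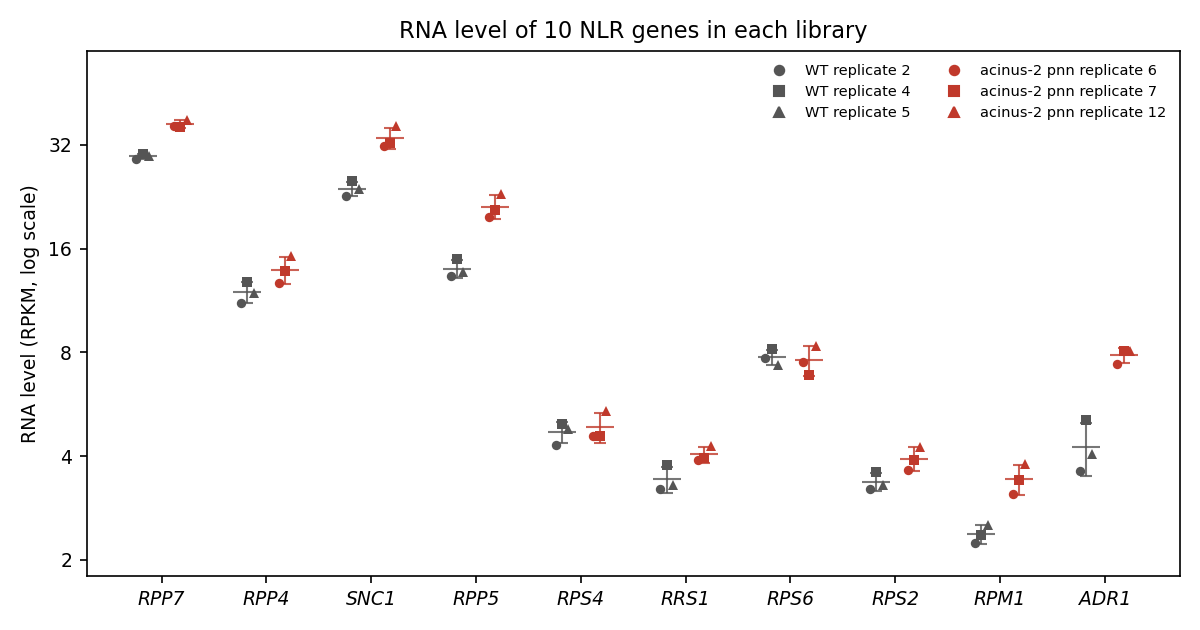
RPKM (log scale) of the 10 NLR genes in each library, with the mean and SD of 3 libraries per genotype. In 7 genes all mutant libraries lie above all WT libraries, and RPP4, RPS4 and RPS6 overlap.

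Over the 10 members, none was called at an adjusted p under 0.02 with a fold above 2 by edgeR (8 had an unadjusted p under 0.05) or by DESeq2, where 9.17% of 20962 genes were called, 4.29% higher and 4.88% lower. At the same adjusted p and any fold, 7 members were higher and 0 lower, where 18% of all genes were higher and 19.4% lower. DESeq2 gave 6. The 7 were RPP7, RPP4, SNC1, RPP5, RRS1, RPM1 and ADR1. Without WT replicate 2, WT replicate 5, mutant replicate 7 or mutant replicate 12 there were 5, and RPP4 kept its place in only 1 of the 6 fits and RRS1 in 2. The genotypes did not overlap in 7 members, all higher in the mutant, where 25.1% of all genes were so. The median log2 change of the members was 0.27, against 0.0015 for all genes. Nothing is read from these counts, since the members were chosen with this contrast known.

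Of 50 member introns, 38 in 8 genes could be tested and 12 had too few reads. One was called higher in the mutant (RPP7 intron 1), where 0.862% of 25523 introns were, and one lower (RPP4 intron 4), where 0.0549% were. Of the 38, 7 had an unadjusted p under 0.05. The 2 genotypes did not overlap in 6 introns that were higher and 6 that were lower in the mutant, where 8.93% and 8.01% of all introns were so. The median log2 change was 0.14, against -0.03 over all introns.

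**Figure D4:**
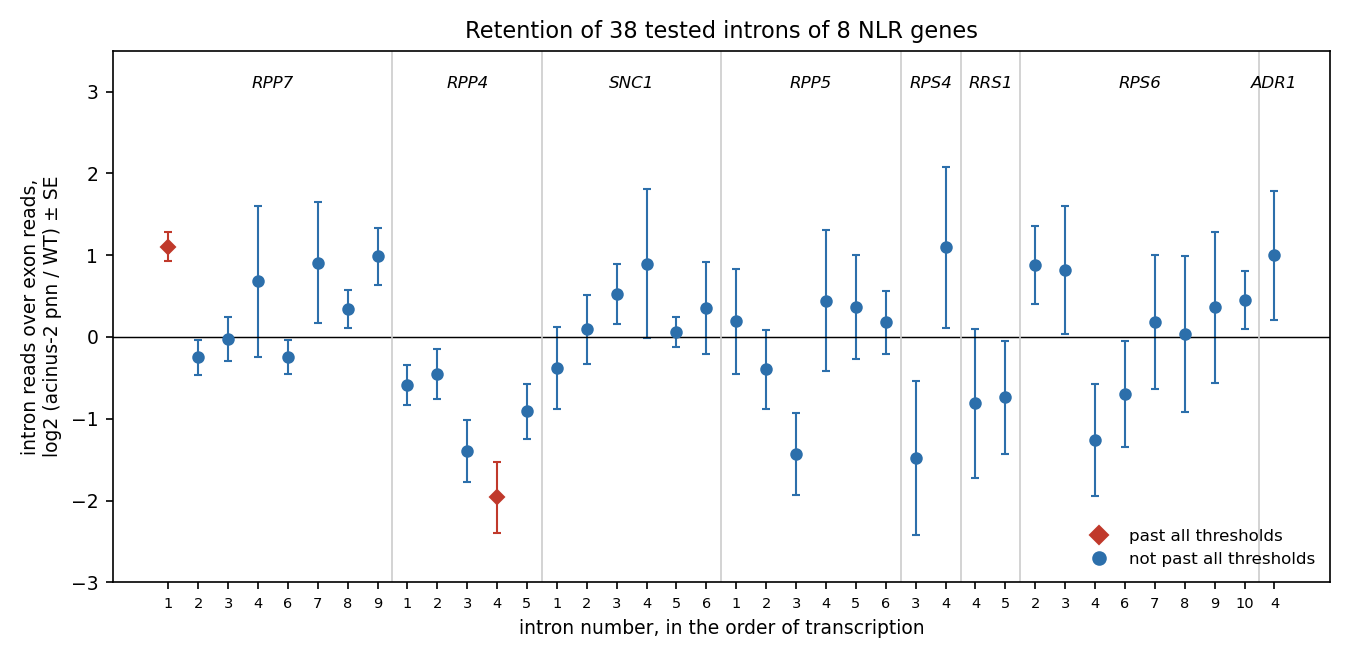
Log2 change in intron reads relative to exon reads (mutant over WT) with its SE for 38 tested introns of 8 NLR genes, numbered in the order of transcription. RPP7 intron 1 at 1.11 and RPP4 intron 4 at -1.96 passed all thresholds, and all 5 RPP4 introns lie below 0.

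The helper relatives of ADR1 split into 2 pairs. ADR1-L1 was at 14.6 ± 1.82 RPKM in WT and 25.6 ± 2.74 in the mutant, a log2 change of 0.81, and ADR1-L2 at 10.8 ± 1.68 and 20.9 ± 2.66, a log2 change of 0.94. In both, all mutant libraries lay above all WT libraries. NRG1.1 and NRG1.2, helpers of a second family, had log2 changes of 0.07 and 0.04. None of these 4 was called by edgeR, where 9.17% of all genes tested were, and 2 had an unadjusted p under 0.05.

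Of 12 partners and signalling genes, 1 was called higher and 0 lower at a fold above 2, and at any fold 5 were higher and 1 lower at an adjusted p under 0.02. Over all genes tested, 4.29% were called higher and 4.88% lower, and at any fold 18% were higher and 19.4% lower. SAG101, a lipase-like partner of EDS1, was at 3.32, 4.11 and 3.32 RPKM in WT and 8.46, 9.35 and 10.2 in the mutant, a log2 change of 1.37 with an edgeR adjusted p of 1.4e-07. EDS1 itself was at 10.9 ± 1.79 RPKM in WT and 17.0 ± 1.77 in the mutant (log2 0.64), and its other partner PAD4 at 10.04 ± 2.15 and 15.2 ± 1.79 (log2 0.59). The EDS1 family members were thus all higher in the mutant, the last 2 below a fold of 2. The chaperone partners SGT1A and SGT1B had log2 changes of 0.47 and 0.25, while SRFR1, which holds SNC1 and other TIR receptors in check, was the 1 lower gene, at 16.2 ± 0.86 RPKM in WT and 13.7 ± 0.89 in the mutant (log2 -0.24, edgeR adjusted p = 0.0020). RIN4, NDR1, HSP90.1 and HSP90.2 had log2 changes between -0.07 and 0.05, and none of them passed. Over the helper, partner and regulator lists 1 gene was called, by DESeq2 as well, and 2 were called without WT replicate 4 or without mutant replicate 6.

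Of 15 regulators of NLR RNA, none was called by edgeR (5 had an unadjusted p under 0.05), where 9.17% of all genes tested were. Besides EDM2, the nucleoporin gene MOS3 was at 9.0 ± 0.47 RPKM in WT and 12.6 ± 0.69 in the mutant, a log2 change of 0.48 with an adjusted p of 3.1e-05. The splicing factor SR45 had a log2 change of 0.12 and MOS14, the importer of SR proteins, of -0.06, and neither passed. MOS4, CDC5, PRL1, MAC3A and MAC3B, subunits of a spliceosome-associated complex needed for SNC1 signalling, lay between 0.03 and 0.14.

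In the RPP5 cluster, 1 neighbour of 9 tested was called lower at a fold above 2, and at any fold 2 were lower and 1 higher at an adjusted p under 0.02. Among all genes tested 4.88% were called lower, and at any fold 19.4% were lower and 18% higher. AT4G16870, annotated as a pseudogene, was at 4.51, 5.57 and 5.03 RPKM in WT and 1.03, 1.09 and 1.38 in the mutant, a log2 change of -2.11 ± 0.096 (SE) with an edgeR adjusted p of 1.2e-08. The other lower neighbour, AT4G16980, was at 257 ± 6.01 RPKM in WT and 186 ± 3.39 in the mutant, a log2 change of -0.47 with an edgeR adjusted p of 2.8e-06. The NLR neighbours AT4G16900 and AT4G16920 had log2 changes of 0.04 and 0.27, and RLM3, a TIR gene of the cluster, of 0.25.

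Of 181 other genes whose product names a disease resistance or NLR class, 153 were tested, and 5 were called higher and 13 lower, with a median log2 change of 0.06. Over all genes tested 4.29% were called higher and 4.88% lower, and the median was 0.0015. The list is mixed, since 37 of its genes have another kind of product, such as dirigent-like proteins, which act in lignin formation. Of the dirigent-like genes 19 were tested, 17 were lower in the mutant and 8 were called lower. The other 144 carry an NLR class in their product, and of 124 tested 5 were called higher and 3 lower, with a median of 0.15. The genes that rose most were AT5G41750, from 1.24 to 5.58 RPKM (log2 2.15), AT1G66090, from 1.36 to 4.99 RPKM (log2 1.85), and AT1G63350, from 1.26 to 3.01 RPKM (log2 1.24). The genes that fell most were AT5G25020, from 1.66 to 0.396 RPKM (log2 -2.06), AT4G08450, from 0.187 to 0.0573 RPKM (log2 -1.79), and the dirigent-like AT4G11190, from 15.7 to 5.33 RPKM (log2 -1.57). Only AT4G08450 among them has an NLR class in its product, and its level was very low in both genotypes. Of 184 introns tested in 73 of these genes, edgeR and DESeq2 called 0. Over all introns edgeR called 0.862% higher and 0.0549% lower, and DESeq2 gave 13 of 25523 an adjusted p under 0.05. Of the 184, 6 passed with an unadjusted p, and 1 was called without mutant replicate 6. Their median log2 change was 0.10.

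**Figure D5:**
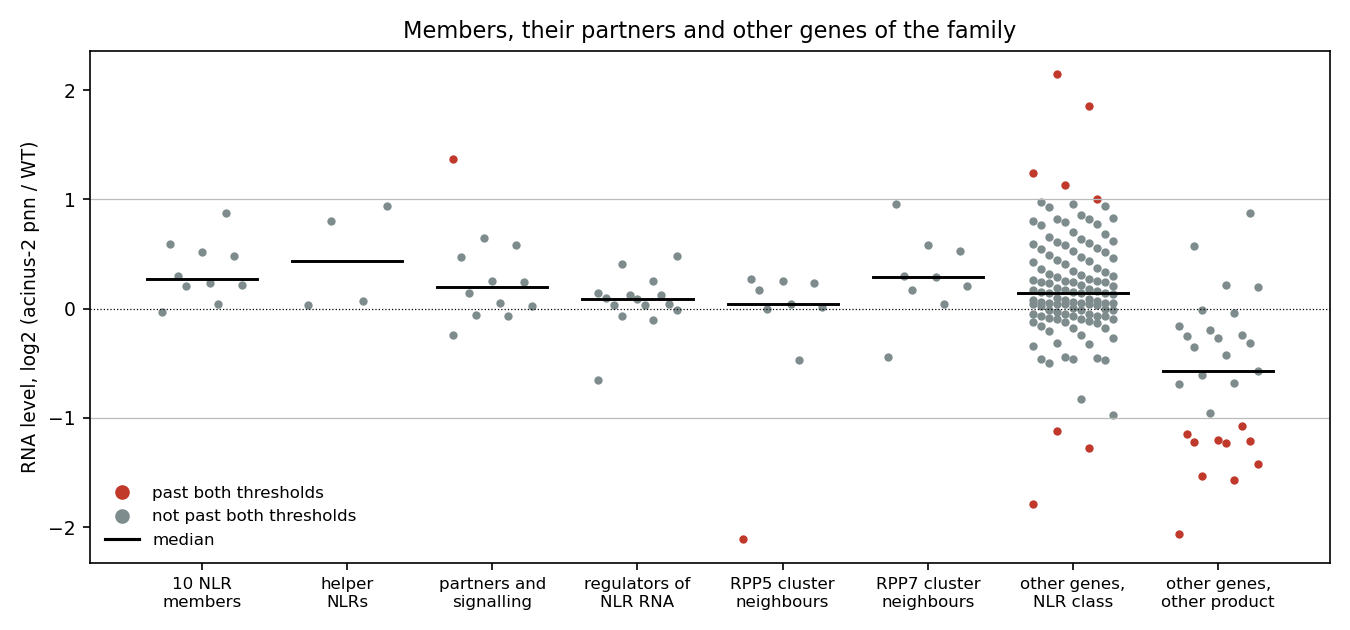
Log2 change in RNA level (mutant over WT) of each tested gene in the lists, with the median as a bar and red points past both thresholds. The 10 members lie between -0.03 and 0.87 with no red point, and the genes of the wider list with another product have a median of -0.57.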

How the data were processed

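Total RNA of whole seedlings was made into NEBNext libraries and sequenced on a HiSeq 2000. Reads were aligned by the authors against TAIR10 and counted by RACKJ at default settings (the labels also name STAR and DESeq2); the versions, gene models, read length and strand used for these tables are not given in the sources used here. The deposited tables hold expected counts per gene, exon and intron (a read of several genes is split), RPKM values per gene as computed by the authors, a deposited fraction of multiple reads, and counts of spliced reads per junction. No column of the authors' comparisons is in these tables.

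Expected counts were rounded to whole numbers. Genes were tested with edgeR 4.0.16 (filterByExpr, TMM, quasi-likelihood) on all genes. A call needed a Benjamini-Hochberg adjusted p under 0.02 and a fold above 2, as in the study's methods. Introns (at least 10 intron reads in all and 10 exon reads per library) were tested as intron reads against reads of the 2 neighbouring exons, with 1 term per library. A call needed an adjusted p under 0.05, a fold above 2, and in the higher genotype over 1 RPKM and over 5% of the exons per base. The methods used an unadjusted p there. Exon usage was tested with diffSpliceDGE and called at a fold above 1.5. Donors and acceptors were tested with 2-sided Fisher's exact tests in 9 library pairs. DESeq2 1.42.0 and R 4.3.3 served for alternatives, which also changed the size factors, filters, thresholds and ratio reference and left out each library. The edgeR fits of genes, introns, exon usage and skipping, the Fisher test and DESeq2 on introns were tested on simulated data; DESeq2 on genes and edgeR on donors and acceptors were not.

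Sequences and positions are from the RefSeq table of TAIR10.1, whose chromosomes are those of TAIR10. Copies were searched with windows of 100 bases every 25 bases. Each library held 18890178 to 27622690 gene reads. Libraries of a genotype differed by 3.63 to 10.4 times the sampling noise (chi-square per degree of freedom), so none was a duplicate. The members and lists were chosen with earlier results of these data known. The genes named were the 10 members, the helper, partner, regulator and cluster lists, and up to 3 called genes in each direction of the wider list; other introns, exons and junctions were named after their values were seen.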

Additional observations from a re-analysis of the deposited data

Results flagged for a closer look

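Junctions outside the tested events were listed if they had at least 10 reads and all mutant libraries above all WT libraries. Their direction was thus set by this rule and is no result, and junctions lower in the mutant were not looked for here. The rule gave 5 junctions of RPP7 and RPP5, each listed with its mean RPM (reads per 1000000 mapped reads) in the mutant. In RPP7, a junction from exon 8 to an acceptor inside intron 8 had 0, 3 and 0 reads in WT and 14, 5 and 4 in the mutant, 0.282 RPM. It is the other choice to the exon 8 to exon 9 junction, an event that was tested and not called (edgeR unadjusted p = 0.125, adjusted p = 0.918). No test was run on the other 4 junctions. A junction inside exon 6 of RPP7 had 0, 1 and 0 reads in WT and 4, 3 and 4 in the mutant, 0.132 RPM. Junctions that join RPP7 to AT1G59218, a related gene of its cluster, left from exon 8 with 2, 2 and 1 reads in WT and 4, 4 and 6 in the mutant, 0.167 RPM, and from exon 7 with 1, 0 and 1 reads in WT and 2, 3 and 6 in the mutant, 0.129 RPM. A junction between the place of RPP4 and exon 2 of RPP5 had 0, 1 and 1 reads in WT and 5, 1 and 3 in the mutant, 0.107 RPM. All rest on few reads, and the last 3 join related copies.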

How the results depend on the processing

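Of 215 values under alternatives for 20 results, 190 kept their direction and side of the threshold, or as counts stayed within 1.5 times. Of the rest, 12 lost a call or fell by over 1.5 times, 9 gained one or rose by as much, and 4 changed sign. No member level reached a fold of 2 in any fit, so none could lose a call. RPP4 counts as kept though its edgeR adjusted p went from 0.0131 to 0.0587 without mutant replicate 12. Settings that changed only a threshold kept the effect sizes of the main fit. Member introns called numbered 1 with spliced reads as reference (RPP4 intron 4 then had no value), 0 with DESeq2, 4 with an unadjusted p, and 1 to 3 when leaving out 1 library. DESeq2 gave 13 of all 25523 introns an adjusted p under 0.05, so its 0 says little about the members. Donor and acceptor events called numbered 0 with edgeR and 1 to 2 when leaving out 1 library. Introns of other NLR genes called numbered 2 with at least 30 intron reads, 6 with an unadjusted p, 1 without RPKM and percentage thresholds, 1 with unshared reads only, and 0 to 1 when leaving out 1 library. Other NLR genes called numbered 8 for NLR classes by product (a choice made after seeing the data, as were the fits with unshared intron reads), and 17 to 21 when leaving out 1 library. Partners and regulators called numbered 1 to 2 when leaving out 1 library. Signs changed for levels near 0, RPS4 with -0.0189 to 0.0806 and RPS6 with -0.0808 to 0.0150 when leaving out 1 library. The sign of RPS2 changed as well, to -0.11 from its few unmarked reads only (edgeR adjusted p = 0.87). RPS4 was at -0.0046 without WT replicate 2 and lowest without mutant replicate 12, and RPS6 was above 0 only without mutant replicate 7. The cause was not tested. No paired analysis was possible because the 2 genotypes share no replicate number. Recovery of introns in simulated counts was incomplete: edgeR found 28 of 100 changed 2-fold and 89 of 100 changed 4-fold, and DESeq2 0 and 22. Whether few reads per intron were the reason was not tested.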
